A study of Oryza sativa Japonica Group with 15 samples.

Results

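The outer 2 Mb of rice chromosomes comprised 4607 of the 37272 bins of 10 kb into which the 12 nuclear chromosomes were divided (12.4%), at 23 chromosome ends. A bin was a member when its midpoint lay within 2 Mb of either end of its chromosome, and the length of a chromosome was the largest restriction fragment end found over all cells. The first 2 Mb of chromosome 9 were left out because the centromere is close to them, so chromosome 9 contributed only its last end. The rule used position alone, and no measured contact chose a member. Ends are called first and last in the order of coordinates. By the longer and shorter side of the centromere, 11 ends belonged to short arms and 12 to long arms. The first end of chromosome 3 is a long arm end, and its last end a short arm end.

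Telomeres cap chromosome ends, and the subtelomeric stretches beside them lie in the distal, gene-rich parts of rice arms. In some plant nuclei chromosomes keep the polarised arrangement left by cell division, with telomeres gathered on the side of the nucleus opposite to the centromeres. In others telomeres lie around the nucleolus or are dispersed. Contacts between ends of different chromosomes, between ends and centromeres, and between both ends of 1 chromosome are the usual readings of these arrangements in contact maps.

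The series addressed the folding of the genome in rice gametes and in the zygote they form, all of Oryza sativa japonica, cultivar Dongjin. It held 4 eggs from florets that had not been pollinated, 4 sperm from stamens, 3 unicellular zygotes collected 6 to 8 hours after pollination, and, as a somatic reference, 4 cells from the shoots of seedlings 12 days after germination. Every cell was fixed in formaldehyde and carried through digestion with DpnII, ligation, amplification of its whole genome by multiple displacement and Illumina sequencing. The labels name no treatment or mutation, and the assay gives no expression, so the cell type labels could not be checked against marker genes.

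A contact was 1 pair of restriction fragments, counted once per cell, and each of the 2 fragments is called an anchor. Contacts were local when they spanned less than 20 kb on 1 chromosome, and far when they spanned at least 20 kb within a chromosome (cis) or joined different chromosomes (trans). The cells held 2236 to 17291 read pairs, 761 to 4576 contacts and 130 to 558 far contacts. The labels name no plant for any cell, so each cell type counted as 1 sample, means and SDs describe the cells, and no test between cell types was made. Intervals in brackets are exact 95% intervals that cover counting error only, since contacts that share a fragment are not independent and no molecular identifiers were used. Cells differed in how far they shared contacts: between 1.08% of far contacts in egg 3 and 27.2% in egg 4 joined the same 2 fragments in another cell as well. Between 1.97% (egg 3) and 60.5% (egg 4) of far anchors fell in recurrent bins, which are 10 kb bins where 5 or more of the 15 cells had a far contact. Results at the ends are therefore given with and without recurrent bins where these moved them. Fewer shoot cells are mentioned in the design text than the 4 deposited, and values without shoot cells 3 and 4 are given where they differed.

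Chromosome ends carried fewer far anchors than their share of bins in every egg and every zygote, whereas 2 sperm and shoot cell 3 had more. The percent of far anchors that fell in end bins was 5.16, 8.996, 6.45 and 3.99 in the 4 eggs. It was 10.0, 17.3, 16.6 and 9.62 in the 4 sperm and 6.98, 9.35 and 3.31 in the 3 zygotes. In the 4 shoot cells it was 8.15, 10.5, 17.3 and 12.35. Every egg lay below every sperm, although egg 2 and sperm 4 differed by less than their counting intervals, and zygotes and shoot cells overlapped. The means were 6.15% ± 2.15 for eggs (SD, n = 4), 13.4% ± 4.12 for sperm (SD, n = 4), 6.55% ± 3.04 for zygotes (SD, n = 3) and 12.1% ± 3.87 for shoot cells (SD, n = 4), against 12.4% of bins. The interval of the cell lay wholly below the share of bins in 9 of the 15 cells and wholly above it in 3, namely sperm 2, sperm 3 and shoot cell 3. Shoot cells 1 and 2 alone averaged 9.34%, both below the share of bins.

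**Figure D1:**
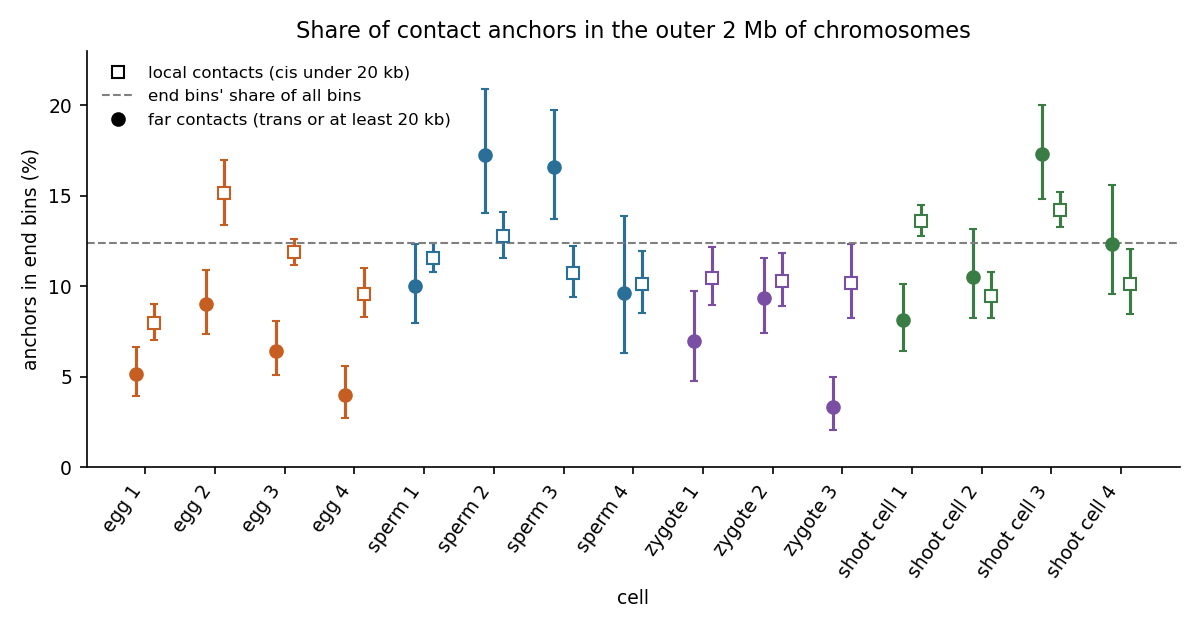
Percent of contact anchors that fell in the outer 2 Mb of chromosomes (y axis) in each of the 15 cells (x axis), for far contacts (filled circles) and local contacts (open squares), with exact 95% intervals for counting error. The dashed line is the 12.4% of bins at chromosome ends. The filled circles of all eggs and zygotes lie below the line, and those of sperm 2, sperm 3 and shoot cell 3 lie above it.

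Recurrent bins moved together with this difference. They held 34.8% ± 24.4 of far anchors in eggs (SD, n = 4) and 45.3% ± 7.17 in zygotes (SD, n = 3), but 13.8% ± 13.1 in sperm and 13.3% ± 10.1 in shoot cells (SD, n = 4 each). With all contacts at recurrent bins left out, the end share was 9.86% for eggs, 15.65% for sperm, 11.4% for zygotes and 14.0% for shoot cells. Then 7 of the 15 cells lay below the share of bins, against 12 with all contacts. Egg 2, with 14.4%, and zygote 2, with 14.2%, were among those above it, so not every egg and zygote was below it. The order of the cell types on their means was the same in both, with a smaller distance between eggs and sperm.

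The ends held few recurrent bins. Of the 4607 end bins, 2 (0.0434%) were recurrent, against 0.255% of all bins and against 10 of the 4600 bins that lie 2 to 4 Mb from the same ends. A far contact in at least 1 cell was found in 416 end bins (9.03%), close to the 8.90% of all bins. Of these, 387 were seen in 1 cell and 22 in 2 cells. The partners of end bins were also less often recurrent than those of other bins within each cell type. Recurrent bins held 18.4% (13.9% to 23.7%) of the partners of end anchors in eggs, against 33.7% for other anchors. The values were 2.40% against 11.5% in sperm, 31.25% against 45.85% in zygotes and 2.86% against 13.6% in shoot cells. Over all cells, 36 of 925 far contacts with an anchor at an end (3.89%, 2.74% to 5.35%) joined the same fragments in another cell, against 521 of 4585 other far contacts (11.4%, 10.5% to 12.3%). These sums mix cells with unlike sharing. Within cells the share at ends was higher in egg 4 (31.0% against 26.9%), sperm 1, sperm 4 and shoot cell 1, and lower in all others.

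Both recurrent end bins had a single partner. The bin at chr8:620001-630000 had 7 far anchors in 6 cells: 2 in egg 4 and 1 each in egg 2, sperm 2, sperm 4, zygote 1 and shoot cell 1. All 7 contacts were trans and led to chr11:17630001-17640000, from the fragment at 626424 to 627201 in all 6 cells. The bin at chr10:1490001-1500000 had 1 far anchor each in sperm 1, sperm 4, zygote 1, zygote 2 and shoot cell 1, all on the fragment at 1496587 to 1497406 and all leading to chr2:16750001-16760000. Coordinates are those of the deposited files, whose genome build is not given in the sources used here. Genes at these positions were not analysed here. Both bins were thus seen in gametes, zygotes and a shoot cell, and both contacts joined the same places in every cell that had them.

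Local contacts were more even across cell types than far contacts. End bins held 11.1% ± 3.10 of local anchors for eggs (SD, n = 4), 11.3% ± 1.14 for sperm (SD, n = 4), 10.3% ± 0.157 for zygotes (SD, n = 3) and 11.85% ± 2.41 for shoot cells (SD, n = 4). Their share was below the share of bins in 11 of the 15 cells, and the far share was below the local share in 10. All 4 eggs and all 3 zygotes were among those 10, with sperm 1, sperm 4 and shoot cell 1. The gap was widest in zygote 3, with 3.31% of far and 10.2% of local anchors. Leaving recurrent bins out of the far contacts changed this. The far share was then 8.47% in egg 1, 9.90% in egg 4 and 14.2% in zygote 2. These values lay above the local shares of 7.98%, 9.59% and 10.3% in the same cells. In zygote 3 it was 10.11%, against 10.15% of local anchors. It stayed below the local share in egg 2, egg 3 and zygote 1. Local shares were not recomputed without recurrent bins. Contacts at the ends also rested on fewer read pairs each than other contacts in 12 of the 15 cells. The means were 3.46 at ends against 3.635 elsewhere for eggs, 3.845 against 3.94 for sperm, 3.39 against 3.96 for zygotes and 3.75 against 4.19 for shoot cells.

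With recurrent bins included, far anchors were few in the outermost 0.5 Mb in eggs and zygotes, with means below those at 2 to 4 Mb. Recurrent bins held 34.8% of far anchors in eggs and 45.3% in zygotes. Of these bins, 2 lay at ends and 10 at 2 to 4 Mb, and the profile was not recomputed without them. The far anchors in the outermost 0.5 Mb amounted to 0.42 ± 0.212 times the share of bins in eggs (SD, n = 4) and 0.271 ± 0.205 times in zygotes (SD, n = 3). Sperm had 1.11 ± 0.644 times and shoot cells 1.10 ± 0.527 times the share of bins there (SD, n = 4 each). At 2 to 4 Mb from the ends the ratio was 0.945 ± 0.261 for eggs, 0.89 ± 0.119 for sperm, 0.721 ± 0.199 for zygotes and 0.876 ± 0.22 for shoot cells. The low values of eggs were not confined to the outermost step. Egg means were 0.687 ± 0.349 at 0.5 to 1 Mb, 0.358 ± 0.249 at 1 to 1.5 Mb and 0.525 ± 0.128 at 1.5 to 2 Mb. Zygotes had 0.33 ± 0.163 at 1 to 1.5 Mb and 0.476 ± 0.365 at 1.5 to 2 Mb. The zygote mean of 1.04 at 0.5 to 1 Mb had an SD of 1.20 and came with a ratio of 2.425 in zygote 2, against 0.342 in the lowest zygote.

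**Figure D2:**
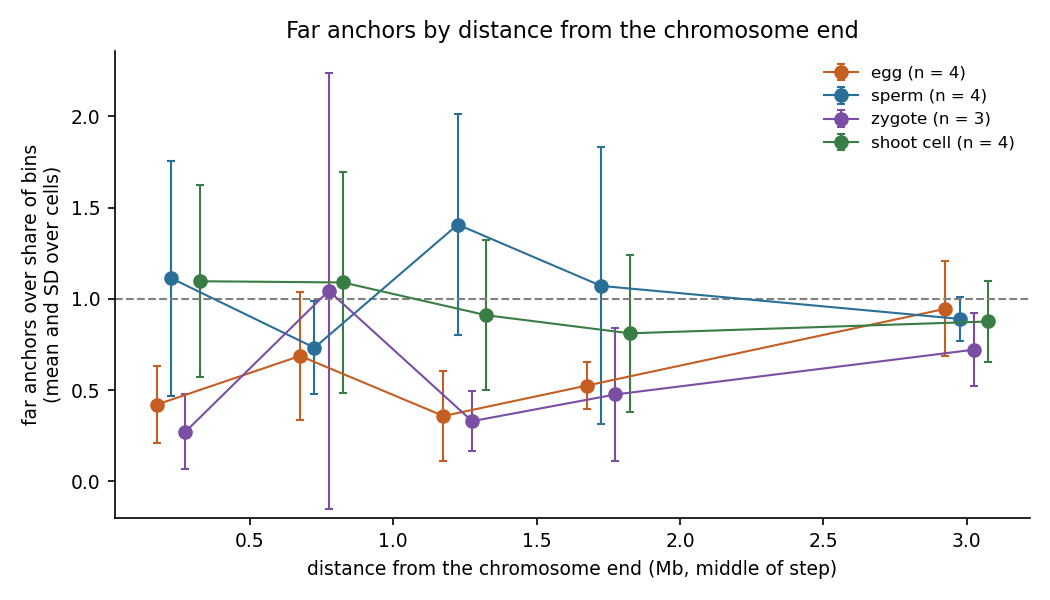
Far anchors as a multiple of the share of bins (y axis, mean with SD over cells) by distance from the chromosome end in Mb (x axis), in steps of 0.5 Mb up to 2 Mb and 1 step from 2 to 4 Mb. Eggs and zygotes lie at 0.42 and 0.271 in the outermost step, against 1.11 in sperm and 1.10 in shoot cells. The egg mean stays at 0.687 or lower up to 2 Mb, and the zygote SD is widest at 0.5 to 1 Mb. Recurrent bins are included.

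Single bins weighed heavily in some cells. In zygote 2, 41 far anchors (54.7% of those at its ends) lay in chr2:35110001-35120000, on 2 fragments, all trans and spread over 28 partner bins on 10 chromosomes. No other cell had a far contact in this bin. In sperm 3, 23 far anchors lay on 1 fragment in chr6:29490001-29500000, with 21 partner bins on 11 chromosomes. Other cells had a top bin with a single partner or a few: the 9 far anchors in chr1:1640001-1650000 of sperm 1 all led to 1 bin of the same chromosome. The top end bin held 4 far anchors in zygote 1, 15 in shoot cell 2 and 14 in shoot cell 3. With the top end bin of each cell left out, an alternative chosen after seeing the data, the end share was 5.38% for eggs, 10.8% for sperm, 4.46% for zygotes and 10.4% for shoot cells.

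The 23 ends differed in far anchors, and a single cell supplied between 16.3% and 53.2% of the far anchors of an end. Each end holds 0.537% or 0.539% of all bins. Averaged over the means of the 4 cell types, the share of far anchors was highest at the last end of chromosome 2 (0.788%), the first end of chromosome 5 (0.584%) and the first end of chromosome 1 (0.563%). It was lowest at the first ends of chromosomes 11 (0.173%) and 6 (0.157%) and at the last end of chromosome 12 (0.111%). The other 17 ends lay between 0.22% and 0.561%. Of the 345 combinations of a cell with an end, 125 had no far anchor and 24 had at least 10.

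The last end of chromosome 2, a long arm end, had 81 far anchors in 11 cells. Its mean share was 0.0915% for eggs, 0.385% for sperm, 1.78% for zygotes and 0.895% for shoot cells, and 41 of the 81 came from the bin of zygote 2 described above. The first end of chromosome 5 had 68 in 10 cells, with a mean of 0.577% for eggs, 1.31% for sperm, 0.0751% for zygotes and 0.373% for shoot cells, and 29 of the 68 came from sperm 3. The first end of chromosome 1 had 65 in 10 cells, with 0.532% for eggs, 0.952% for sperm, 0.675% for zygotes and 0.0945% for shoot cells, and 25 of the 65 came from sperm 1. The high ranks of these 3 ends thus rested in part on a different cell each.

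At the low end of the ranking, the first end of chromosome 11 had 15 far anchors in 7 cells, with 0 in the 4 eggs, 0.0321% for sperm, 0.425% for zygotes and 0.234% for shoot cells. The first end of chromosome 6 had 22 in 8 cells, with 0.347% for eggs, 0.131% for sperm, 0.0416% for zygotes and 0.109% for shoot cells. The last end of chromosome 12 had 13 far anchors in 5 cells, the fewest of all ends, with 0.112% for eggs, 0.0321% for sperm, 0.15% for zygotes and 0.15% for shoot cells. The first ends of chromosomes 11 and 12 carry a duplicated segment in rice. They also had the fewest local anchors of all ends, 102 at chromosome 11 and 74 at chromosome 12, against a median of 232, and the part of this in their rank was not tested. The first end of chromosome 8 was the only end with a far anchor in all 15 cells (52 in all, 1 to 11 per cell). The first ends of chromosomes 4 and 10, whose short arms are largely heterochromatic in rice, had mean shares of 0.281% and 0.432%.

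**Figure D3:**
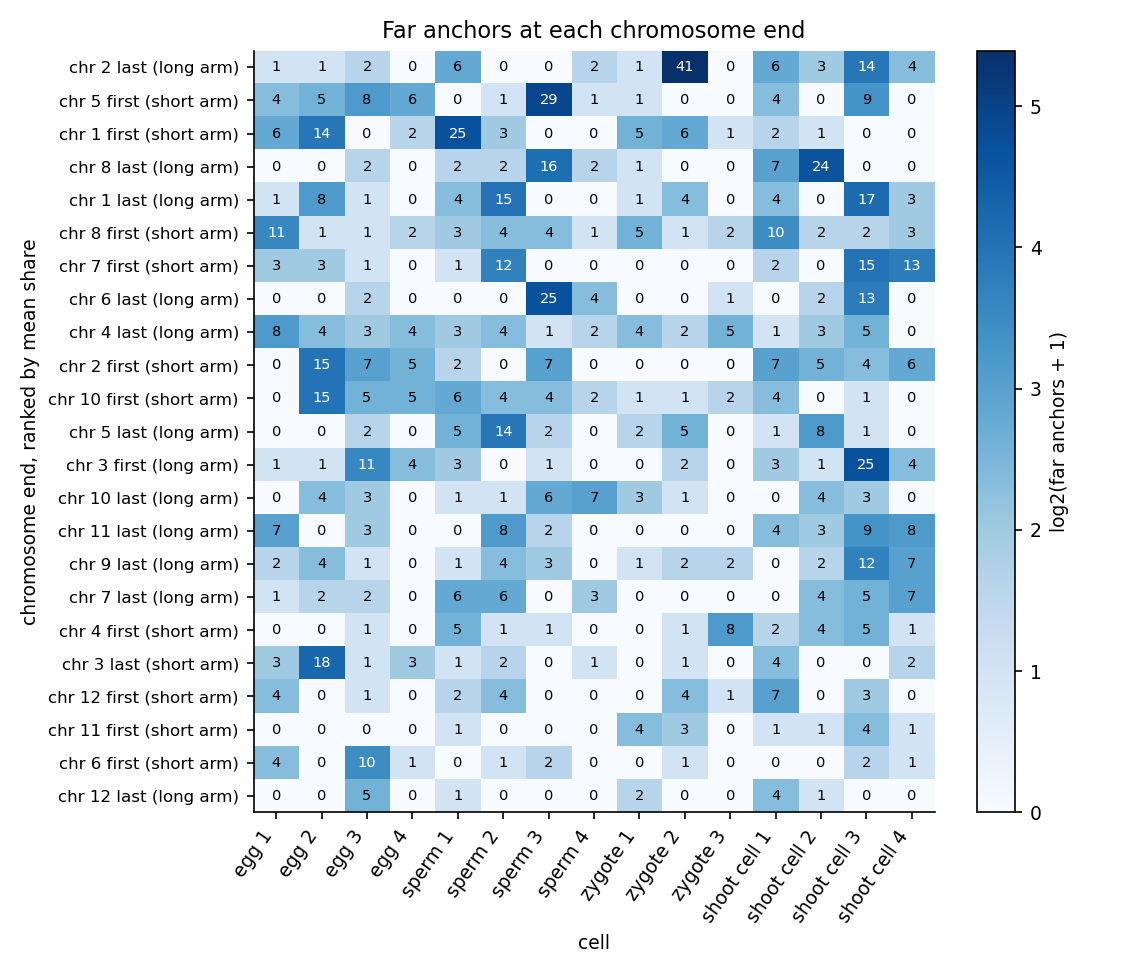
Number of far anchors at each of the 23 chromosome ends (rows, ranked from the highest to the lowest mean share) in each of the 15 cells (columns), with colour on a log2(count + 1) scale. The counts are uneven: 41 at the last end of chromosome 2 in zygote 2 and 29 at the first end of chromosome 5 in sperm 3 stand beside cells with 0 at the same ends.

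Short arm ends held, on average, the larger part of the far anchors at ends in eggs and not in sperm or shoot cells, but cells of a type differed by as much as the types. Short arm ends made up 47.8% of end bins. Their percent of the far anchors at ends was 62.5, 74.7, 48.6 and 75 in the 4 eggs, 59.0, 37.2, 45.6 and 20 in the 4 sperm, and 51.6, 24 and 63.6 in the 3 zygotes. In the 4 shoot cells it was 58.9, 19.1, 30.2 and 45.0. All 4 eggs were above the share of bins, and the ranges of all 4 types overlapped. The means were 65.2% ± 12.5 for eggs, 40.5% ± 16.3 for sperm, 46.4% ± 20.3 for zygotes and 38.3% ± 17.3 for shoot cells. Among local anchors at ends, the short arm share was 53.5% ± 14.1 for eggs, 54.9% ± 12.2 for sperm, 51.0% ± 18.1 for zygotes and 41.2% ± 7.75 for shoot cells. Averaged over ends and cell types, short arm ends had 0.375% of far anchors each and long arm ends 0.45%. The medians over ends were close to each other, 0.432% for short arm ends and 0.425% for long arm ends.

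The share of far cis anchors at ends that belonged to contacts over 2 Mb differed between arms in sperm and shoot cells. Contacts within 1 end weighed on both differences. Each of them counts with both anchors and spans at most about 2 Mb, so leaving them out raises the share by design. At short arm ends of sperm it was 4 of 35 (11.4%), against 19 of 23 (82.6%) at long arm ends. Sperm 1 supplied 26 of the 35 with its 13 contacts within short arm ends, and without sperm 1 the values were 2 of 7 and 14 of 16. Shoot cells had 12 of 15 (80.0%) at short arm ends and 20 of 45 (44.4%) at long arm ends, where 24 of the 45 belonged to 12 contacts within 1 end. With contacts within 1 end left out, an alternative chosen after seeing the data, sperm had 4 of 7 (57.1%, 18.4% to 90.1%) at short arm ends and 19 of 21 (90.5%, 69.6% to 98.8%) at long arm ends. The long arm ends of sperm thus stayed above the short arm ends, with overlapping intervals. Shoot cells then had 12 of 15 (80.0%) and 20 of 21 (95.2%), with the long arm ends now above the short arm ends. In eggs 17 of 29 (58.6%) at short arm ends and 8 of 18 (44.4%) at long arm ends were over 2 Mb with all contacts. In zygotes these were 6 of 7 at short arm ends and 3 of 5 at long arm ends.

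Most far contacts of the ends were trans, and by anchor their share was close to that of the rest of the genome. Over all 15 cells, 848 of 1025 far anchors in end bins (82.7%) belonged to trans contacts, against 80.4% of 9995 far anchors in other bins, and the share at ends was higher in 9 of the 15 cells. It averaged 80.7% ± 3.93 in eggs, against 82.5% ± 2.24 in other bins (SD, n = 4). The values were 78.9% ± 16.7 against 75.1% ± 9.46 in sperm (SD, n = 4), 89.6% ± 2.89 against 82.9% ± 2.21 in zygotes (SD, n = 3) and 80.5% ± 9.40 against 80.4% ± 4.34 in shoot cells (SD, n = 4). The share at ends was higher in all 3 zygotes, with overlapping intervals in each. The widest gap was in sperm 3, with 93.2% (86.5% to 97.2%) at ends and 75.1% (71.2% to 78.8%) in other bins.

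Counted by contact, the same contacts gave a wider gap. A contact was then assigned to the ends if either anchor lay there, which gives a trans contact 2 chances to be assigned, more than a short cis contact has. On this count 85.1% (82.6% to 87.3%) of far contacts with an anchor at an end were trans, against 79.8% (78.6% to 80.9%) of those without one, and the share at ends was higher in 13 of the 15 cells. Without recurrent bins it was higher in 10 of the 15 cells by contact, and with contacts merged to 1 per pair of 10 kb bins in 11. The count by anchor was added after seeing the data.

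The spans of far cis contacts at the ends also depended on this choice. By anchor, 89 of 177 far cis anchors in end bins (50.3%) belonged to contacts over 2 Mb, against 51.3% of 1955 in other bins. By contact the share was 87 of 138 (63.0%, 54.4% to 71.1%), against 49.5% (46.2% to 52.7%) of those without an anchor at an end. The share by contact was 25 of 37 (67.6%) for eggs, 22 of 42 (52.4%) for sperm, 9 of 12 (75%) for zygotes and 31 of 47 (66.0%) for shoot cells. By anchor it was 53.2% for eggs, 39.7% for sperm, 75% for zygotes and 53.3% for shoot cells, against 61.0% of other anchors for eggs, 30.8% for sperm, 62.8% for zygotes and 52.9% for shoot cells. Single cells carried much of these values. The sperm share by contact was 76.2% without sperm 1, the egg share was 50.0% without egg 3, whose 13 contacts were all over 2 Mb, and the shoot share was 41.2% without shoot cells 3 and 4.

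A position at an end has cis partners on 1 side only, and a larger part of its possible partners is therefore distant. Contacts were set against the number expected from the possible pairs of positions on the same chromosome at the same separation. This expectation takes all positions as equally covered, although ends held 6.15% of far anchors in eggs against 12.4% of bins. On this scale eggs had fewer contacts at ends than expected at every separation, not only at long ones. The ratio was 0.613 (0.225 to 1.33) at 20 to 200 kb and 0.656 (0.241 to 1.43) at 200 kb to 2 Mb. Eggs had 8 at 2 to 10 Mb against 19.0 expected, a ratio of 0.42 (0.181 to 0.828). They had 17 over 10 Mb against 27.4 expected, a ratio of 0.621 (0.362 to 0.994). The ratio at 2 to 10 Mb was 0.253 without egg 2, and the ratio over 10 Mb was 0.382 without egg 3. The interval included 1 without egg 1 or egg 4 at 2 to 10 Mb, and without egg 1, egg 2 or egg 4 over 10 Mb. Recurrent bins bore on these values. Without them, egg contacts over 2 Mb went from 25 to 23 at ends and from 189 to 80 elsewhere. The ratios to the expected number were not recomputed without recurrent bins. Zygotes had 0 contacts of 20 to 200 kb against 5.52 expected, with an upper bound of 0.668 on the ratio, which was 1.05 without zygote 1. They had 5 against 9.71 expected at 2 to 10 Mb and 4 against 9.23 expected over 10 Mb, with intervals that included 1. Without recurrent bins, zygote contacts over 2 Mb stayed at 9 at ends and went from 89 to 31 elsewhere.

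Sperm had 6 contacts of 200 kb to 2 Mb at ends against 14.35 expected, a ratio of 0.418 (0.153 to 0.91), which was 0.729 without sperm 1. Their 14 contacts of 20 to 200 kb against 10.1 expected included 13 from sperm 1, and the ratio of 1.39 was 0.258 without it. Over 10 Mb sperm had 14 against 12.9 expected. Shoot cells were the only type with an excess beyond the interval, 9 contacts of 200 kb to 2 Mb against 3.85 expected, a ratio of 2.34 (1.07 to 4.43). Shoot cell 4 gave 5 of these 9, and the ratio was 1.48 (0.403 to 3.79) without it and 2.01 (0.809 to 4.14) without shoot cell 1. Their ratio over 10 Mb was 1.14 (0.731 to 1.70). Contacts under 1 kb stood at 0.902 times their expected number for eggs, 0.941 for sperm, 0.848 for zygotes and 1.07 for shoot cells.

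**Figure D4:**
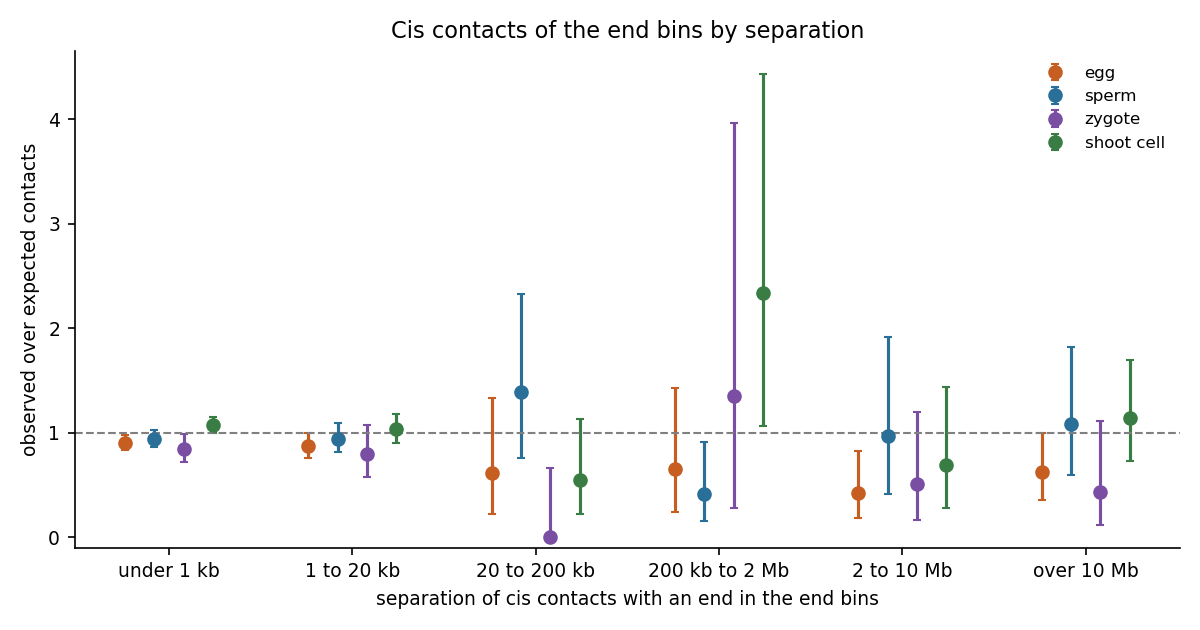
Cis contacts with an anchor at a chromosome end, as observed over expected number (y axis), by separation (x axis) and cell type, with exact 95% intervals for counting error. The dashed line marks the number expected from possible pairs. Among contacts of at least 20 kb, whole intervals lie below it for eggs at 2 to 10 Mb (0.42) and over 10 Mb (0.621). They also do for zygotes at 20 to 200 kb (0) and sperm at 200 kb to 2 Mb (0.418). The interval of shoot cells lies above it at 200 kb to 2 Mb (2.34).

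By partner, most far contacts of the ends led to chromosome interiors, which also hold most bins. Bins outside ends, pericentromeres included, made up 87.6% of all bins. No expected number is set beside the shares of interiors, so by themselves they show no preference. Bins of other chromosomes outside ends and pericentromeres, with pericentromeres taken as within 1 Mb of the centromere positions known for rice, were the partner in 79.9% of 239 contacts in eggs and 65.6% of 253 in sperm. They were the partner in 83.9% of 124 contacts in zygotes and 70.2% of 309 in shoot cells. Contacts within the same end numbered 10 for eggs, 15 for sperm, 0 for zygotes and 12 for shoot cells, and the 0 in zygotes allows a share of up to 2.42%, taken as 3 counts of the total. Contacts between both ends of 1 chromosome were rare. Chromosome 12 had 1 in sperm 1 and chromosome 7 had 1 in shoot cell 4. The expectation at a contact's own separation cannot judge these counts, because contacts this long have few possible pairs outside both ends. By the same limit of 3 counts, the 0 of eggs allows a share of up to 1.26% and the 0 of zygotes up to 2.42%.

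Ends of different chromosomes met more often in sperm and shoot cells than in eggs and zygotes, but ends also had more far anchors there. The expected number was computed from the far trans anchors at the ends of each chromosome. Eggs had 1, 4, 1 and 0 contacts between ends of different chromosomes, sperm 6, 12, 3 and 2, zygotes 2, 2 and 0, and shoot cells 9, 3, 12 and 4. Against the expected number, this was 6 against 6.60 in eggs, a ratio of 0.909 (0.334 to 1.98). It was 23 against 17.2 in sperm, a ratio of 1.34 (0.848 to 2.01), and 4 against 3.71 in zygotes, a ratio of 1.08 (0.294 to 2.76). Shoot cells had 28 against 18.8, a ratio of 1.49 (0.988 to 2.15). The interval of each cell type included 1.

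These ratios depended on single cells. The highest ratios of single cells with over 5 contacts were 3.71 (1.70 to 7.05) in shoot cell 1 and 3.16 (1.16 to 6.87) in sperm 1, and sperm 3 had the lowest of the sperm, 0.37 (0.0762 to 1.08). The sperm ratio was 2.20 (1.34 to 3.40) without sperm 3, and the shoot ratio was 2.24 (1.28 to 3.64) without shoot cell 3 and 2.40 without shoot cells 3 and 4. The egg ratio was 0.577 without egg 2. With a window of 1 Mb in place of 2 Mb, the ratio was 3.24 in sperm, 2.96 in shoot cells, 1.37 in eggs and 1.17 in zygotes. With a window of 3 Mb it was 1.12 in sperm, 1.42 in shoot cells, 0.753 in eggs and 0.718 in zygotes. Intervals were not computed for these windows. Over all 15 cells, 61 contacts stood against 46.35 expected, a ratio of 1.32 (1.01 to 1.69). The ratio was 1.26 (0.912 to 1.70) with contacts merged to 1 per pair of 10 kb bins, and 1.21 (0.924 to 1.55) without recurrent bins. The 2 to 4 Mb windows met each other at a ratio of 1.05 (0.797 to 1.36) and met the ends at 1.11 (0.912 to 1.34).

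**Figure D5:**
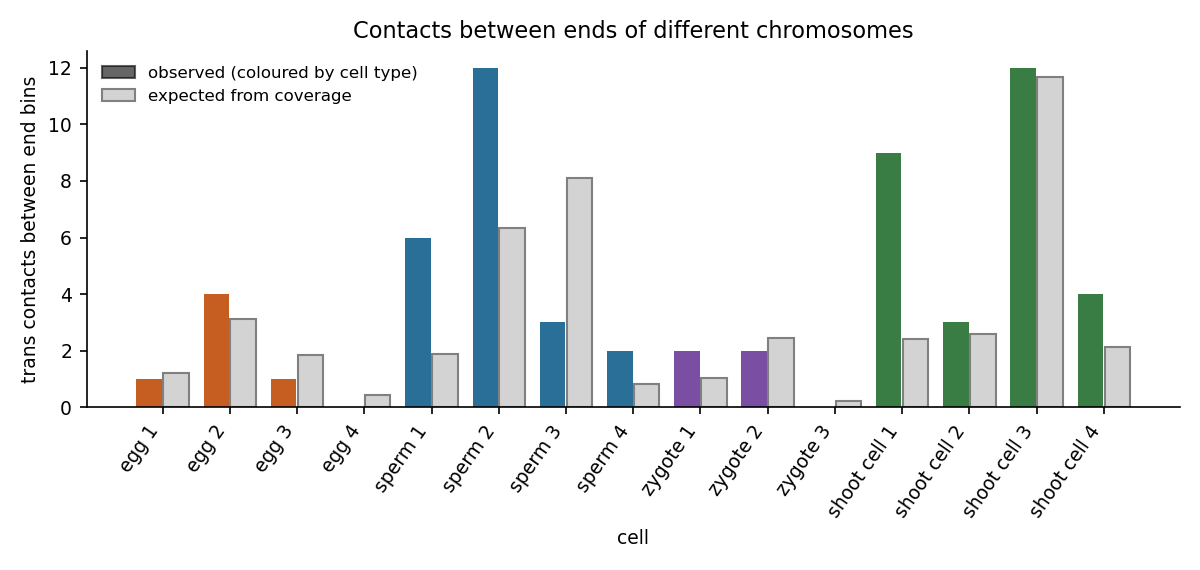
Number of trans contacts with both anchors at chromosome ends (y axis) in each cell (x axis), observed (coloured bars) and expected from the coverage of the ends (grey bars). Sperm 1, sperm 2 and shoot cell 1 stand above their expected numbers, sperm 3 below it, and shoot cell 3, with 12 observed, stands at its expected 11.7.

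Short arm ends met long arm ends at 1.53 times the expected number over all cells (35 against 22.8, 1.07 to 2.13). Short arm ends met short arm ends at 0.967 times (8 against 8.27, 0.418 to 1.91), and long arm ends met long arm ends at 1.18 times (18 against 15.3, 0.699 to 1.86). The short to long ratio was 1.83 (1.06 to 2.92) in sperm and 1.49 (0.793 to 2.55) in shoot cells, and 3.59 in sperm without sperm 3. It was 1.32 without sperm 1 and 1.31 without sperm 2, with intervals that included 1. In shoot cells it was 0.795 without shoot cell 1 and 3.36 without shoot cell 3. Few places produced these contacts. The 7 contacts of the last end of chromosome 1 with the first end of chromosome 7 in sperm 2 lay in 1 pair of 10 kb bins, as did the 6 contacts of the last end of chromosome 8 with the first end of chromosome 12 in shoot cell 1. Of the 242 possible pairs of ends of different chromosomes, 38 were joined in any cell, 35 of them in 1 cell, 3 in 2 cells and 0 in 3 or more. The 3 seen in 2 cells, named here after their values were seen, joined the last end of chromosome 1 with the first of chromosome 7 (sperm 2 and shoot cell 4), both last ends of chromosomes 4 and 10 (zygote 2 and shoot cell 2), and the first end of chromosome 1 with the last of chromosome 5 (sperm 1 and zygote 1).

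Summed by cell type, ends met pericentromeres of other chromosomes about as often as their coverage gave, except in sperm, where 1 cell set the value. Eggs had 5 contacts of this kind where 7.91 were expected, a ratio of 0.632 (0.205 to 1.47), zygotes 4 against 3.50, a ratio of 1.14 (0.312 to 2.93), and shoot cells 17 against 19.2, a ratio of 0.887 (0.516 to 1.42). Sperm had 22 against 7.73, a ratio of 2.85 (1.78 to 4.31). All 22 came from sperm 3, and they joined the adjoining bins chr5:1240001-1250000 (14 contacts) and chr5:1230001-1240000 (8 contacts) with the bin chr6:16130001-16140000. The other sperm had 0 against 3.54 expected, with an upper bound of 1.04 on the ratio. The egg ratio was 0.378 without egg 3, and the zygote ratio was 0 without zygote 1 and 2.23 without zygote 2. Whether the known centromere positions fit the genome build used here was not tested.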

How the data were processed

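Single-cell Hi-C contacts of 15 rice cells were analysed. The deposited files list read pairs as positions, restriction fragments and strands, not as normalised values. These are other values than counts. How reads were aligned and contacts called, and on which build, is not given in the sources used here. Per the labels' protocols, DNA was cut with DpnII, ligated, amplified by multiple displacement and sheared before sequencing. A deposited list of chromosome names was not used here.

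Read pairs were reduced to distinct fragment pairs placed at fragment midpoints. End bins, 10 kb bins within 2 Mb of an end, were compared with all other bins and with bins 2 to 4 Mb from the same ends. Expected trans contacts were, per cell, the sum over pairs of different chromosomes of the product of their shares of far trans anchors in the regions compared. Expected cis contacts used the share of position pairs, on the contact's own chromosome and at its own separation, that have a member in the end bins, a finer form of the planned expectation per class. Intervals are exact (Clopper-Pearson for shares, Poisson for counts, 95%). Where the count was 0, a share is given a limit of 3 counts, and a ratio the upper bound of its Poisson interval. The short arm is the shorter side of the centromere position known for rice, and pericentromeres reach 1 Mb to each side of it. The named items are the 3 highest and 3 lowest ends by the mean of the 4 cell type means, end bins seen in 5 or more cells, pairs of ends seen in 3 or more cells, and chromosomes with contacts between both ends. The members, lists and rules were chosen with earlier results of these data known. No genes, promoters or sequences were analysed here, because no genome of the files' build was at hand.

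The alternatives merged contacts per pair of 10 kb bins, left out fragments of more than 4 partners, recurrent bins, shared bin pairs, isolated contacts (no other far contact with both anchors within 1 Mb), each cell in turn or shoot cells 3 and 4, thinned cells to the shallowest (100 draws), and set far at 100 kb or the window at 1 or 3 Mb. Others used read pairs, an expectation from bins, another arm rule, no chromosome 9, or shares by anchor. The measures were tested on simulated data. Python 3.11.15, numpy 2.4.6, pandas 2.3.3, scipy 1.17.1 and matplotlib 3.10.9 were used.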

Additional observations from a re-analysis of the deposited data

Results flagged for a closer look

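Among the shares of far anchors at the 3 highest and 3 lowest ends, 4 values of single cells stood far from the other cells of their type. The other ends were not examined in this way, and the 3 zygotes were too few for it. Chance flags about 1 in 20 groups by this gap, and most groups of cells hold several values of 0. These ends were chosen by their shares in the same cells, so that rate need not hold for them. At the first end of chromosome 5, sperm 3 had 4.66% of its far anchors, against 0% to 0.385% in the other sperm. At the last end of chromosome 12, egg 3 had 0.448% and the other eggs had 0. Sperm 1 had 0.128%, which is a single anchor, at the first end of chromosome 11 and again 0.128% at the last end of chromosome 12, and the other sperm had 0 at both ends.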

How the results depend on the processing

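Under settings other than leaving out 1 cell, 207 recomputed values moved by less than the spread between cells or the counting interval and 22 moved further. The trans share of far contacts at ends was 78.9% in eggs and 81.7% in zygotes without fragments of more than 4 partners, 80.6% in eggs without bin pairs joined in more than 1 cell and 80.7% in eggs counted by anchor, and in zygotes 84.1% without recurrent bins, 92.4% without isolated contacts, 92.0% with a 3 Mb window and 85.8% without the top end bin of each cell, the last and the count by anchor chosen after seeing the data. In shoot cells it was 69.9% without isolated contacts. The end share of far anchors was 9.86% in eggs and 11.4% in zygotes without recurrent bins, and 8.71% in eggs with a 3 Mb window, scaled to the 2 Mb share of bins. The share of far cis contacts over 2 Mb in sperm was 69.6% with contacts merged per pair of bins and 75% with a 1 Mb window, and in zygotes 100% with that window, on few contacts. It was 41.2% in shoot cells without shoot cells 3 and 4. The ratio of contacts between ends was 0 in zygotes without isolated contacts, and 3.24 in sperm and 2.96 in shoot cells with a 1 Mb window. It was 2.40 in shoot cells without shoot cells 3 and 4, and 0.234 in eggs with an expectation from the number of bins. In zygotes that expectation gave 0.327, which stayed within the counting interval. So did the ratios of 1.52 in eggs and 1.87 in zygotes without fragments of more than 4 partners. The short arm share in eggs was 80.8% with a 1 Mb window. The cause of these shifts was not tested. Leaving out each cell in turn, the share over 2 Mb ranged from 50.0% to 74.2% in eggs and from 40.6% to 76.2% in sperm, and the ratio of contacts between ends from 1.16 to 2.24 in shoot cells and from 1.01 to 2.20 in sperm. No paired analysis was possible because no test between cell types was made and the numbers of cells only name them. Depth limits every value at the ends: the cells had 22 to 149 far anchors there, and the ratio of contacts between ends in zygotes, with an interval of 0.294 to 2.76, could not show an excess of the size seen in sperm or shoot cells.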
